A study of Mus musculus with 8 samples.

Results

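The genes described here are 7 of the 27179 genes in the raw count table of a mouse plasma cell RNA-seq series. They were chosen by name: H2-Aa, H2-Ab1, H2-Eb1 and H2-Eb2, which encode chains of the classical MHC class II molecules I-A and I-E, Cd74, which encodes the invariant chain, Ctss, which encodes cathepsin S, and Ciita, which encodes the class II transactivator. All 7 genes were found in the table and all 7 passed the filter on low counts.

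MHC class II molecules are pairs of an alpha and a beta chain that display peptides from endosomes to CD4+ T cells. New pairs assemble in the endoplasmic reticulum on the invariant chain, which fills the peptide groove and directs them to endosomes, where cathepsin S trims it to the CLIP fragment that is then exchanged for peptide. CIITA binds no DNA itself and acts through RFX, CREB and NF-Y, which sit on the X and Y boxes of class II promoters. B cells carry class II constitutively, and in plasma cells Blimp1, a transcriptional repressor encoded by Prdm1, is known to silence Ciita, while XBP1 is the transcription factor of the unfolded protein response that expands the secretory pathway.

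The RNA came from C57BL/6 bone marrow plasma cells, sorted on a Blimp1-GFP reporter and on CD138 at the cell surface. The 8 libraries form 4 groups of 2: wild type (WT) replicates 1 and 2 and Blimp1-/- (Blimp1KO) replicates 1 and 2 in batch 1, and WT replicates 3 and 4 and Xbp1-/- (Xbp1KO) replicates 1 and 2 in batch 2. The series design calls the replicates biological, and how or when either gene was deleted, the age of the mice and the number of mice per library are not given in the sources used here. The WT libraries of the same batch served as the control of each knockout, a comparison that asks what each factor maintains or represses in these cells.

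The promoters of the chains are shown first because CIITA acts through sequence that class II genes share. Windows of H2-Aa, H2-Eb1, H2-Eb2 and Ctss were taken from the RefSeq table of GRCm38.p6, and Cd74, H2-Ab1 and Ciita were not examined. Each window runs from 250 bases before to 50 bases after a transcript start. The windows are chr17:34287774-34288073 on the minus strand for H2-Aa, chr17:34305617-34305916 on the plus strand for H2-Eb1 and chr17:34325425-34325724 on the plus strand for H2-Eb2, whose start in this window (34325675) lies inside the gene's outermost start (34325503). Capitals mark an X box core, searched as AGNNAC, any 3 bases and TG, and the Y box ATTGG that follows it. In H2-Aa, which has no match to that core, they mark GCAAC, a word added after the sequences were seen, and the Y box.
H2-Aa: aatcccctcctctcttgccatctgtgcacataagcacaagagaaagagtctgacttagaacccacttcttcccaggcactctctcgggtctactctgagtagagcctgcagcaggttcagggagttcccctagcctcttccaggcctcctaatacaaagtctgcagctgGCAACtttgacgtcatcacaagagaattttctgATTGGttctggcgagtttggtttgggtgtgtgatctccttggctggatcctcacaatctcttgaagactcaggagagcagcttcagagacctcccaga
H2-Eb1: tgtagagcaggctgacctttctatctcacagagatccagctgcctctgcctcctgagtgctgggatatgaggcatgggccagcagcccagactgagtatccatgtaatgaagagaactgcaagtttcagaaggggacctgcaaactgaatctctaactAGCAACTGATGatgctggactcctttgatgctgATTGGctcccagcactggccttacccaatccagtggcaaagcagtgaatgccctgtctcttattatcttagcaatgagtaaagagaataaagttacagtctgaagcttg
H2-Eb2: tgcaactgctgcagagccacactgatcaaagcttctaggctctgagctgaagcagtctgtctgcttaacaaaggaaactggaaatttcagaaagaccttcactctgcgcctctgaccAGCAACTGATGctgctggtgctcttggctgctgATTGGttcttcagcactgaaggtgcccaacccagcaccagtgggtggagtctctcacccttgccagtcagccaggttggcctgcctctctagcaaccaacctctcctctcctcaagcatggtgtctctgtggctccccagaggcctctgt

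H2-Eb1 and H2-Eb2 carried the same X box core word, at -92 to -82 in H2-Eb1 and at -133 to -123 in H2-Eb2, counted from the start of each window's transcript. The Y box followed at -59 to -55 and at -100 to -96. The word GCAAC, which both cores contain, lay 27 bases before ATTGG in each of these genes. In H2-Aa it lay 28 bases before the Y box at -48 to -44. The window of Ctss had no match to the X box core, the Y box or GCAAC. Over all 32851 promoter windows of the table, searched on both strands, 14.8% held the X box core, 37.4% the Y box and 35.2% GCAAC, and 0.922% held the core followed by the Y box on the gene's strand. The core of a Blimp1 site, searched as AGNGAAAG, matched at -212 to -205 in H2-Aa and in 8.63% of all windows, and had no match in the other 3 windows. H2-Eb1 and H2-Eb2, with the same core and spacing, had different values in the knockouts, given below.

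Libraries held 44.012 to 145.4 M counts (M for 1e6), of which 25.2% to 75.7% fell on immunoglobulin genes, so values are CPM, counts per 1e6 counts, on library sizes scaled by the trimmed mean of M values (TMM). Prdm1 was at 301 and 306 CPM in batch 1 WT and at 243 and 176 CPM in Blimp1KO, and Xbp1 was at 2129 and 2203 CPM in batch 2 WT and at 1302 and 1105 CPM in Xbp1KO; whole-gene counts can include exons outside a deletion, so neither level tests the labels fully. All 10 plasma cell markers, among them Sdc1, Irf4 and Mzb1, had counts in every library. In Blimp1KO 10 of 10 had estimates below WT, with a median log2 fold change of -0.55 and none called, and their sum, mostly Jchain, was 119400 and 110900 CPM in batch 1 WT and 58940 and 72660 CPM in Blimp1KO. In Xbp1KO Mzb1, Derl3 and Fkbp11, 3 of 10, were called lower, where 763 of all 15073 genes tested were called lower. The median was -0.36, and 5 of 10 estimates were above WT. The list includes both deleted genes, Prdm1 and Xbp1, so it is not a measure of cell type free of the knockouts. WT replicate 4 and Xbp1KO replicate 2 stood apart from their partners in neutrophil transcripts, with 9 neutrophil genes summing to 493 and 1097 CPM against 2.81 CPM in WT replicate 3 and 1.60 CPM in Xbp1KO replicate 1. In batch 1 the same sum was 90.2 and 194 CPM in WT and 49.96 and 119 CPM in Blimp1KO.

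In Blimp1KO plasma cells the transcripts of the I-A chains and of the I-E beta chain rose, by about 4 to 8 times, while the other members did not pass the test. H2-Aa, the alpha chain of I-A, was at 397 and 234 CPM in batch 1 WT and at 2229 and 2815 CPM in Blimp1KO. The lower Blimp1KO library lay above the higher WT library by a wide margin, and the log2 difference came to 2.999 with an SE of 0.36 (n = 2 per group; 7.99-fold, edgeR adjusted p = 0.0320). Every adjusted p on a gene comes from the quasi-likelihood test of edgeR, adjusted after Benjamini and Hochberg over all 15073 genes tested, and a gene was called below 0.05. H2-Ab1, the beta chain that pairs with it, was at 555 and 385 CPM in WT and at 1564 and 2150 CPM in Blimp1KO. Its groups did not overlap either, and its log2 fold change was 1.98 ± 0.29 (SE, adjusted p = 0.0382). H2-Eb1, the I-E beta chain, was at 360 and 227 CPM in WT and at 1419 and 1907 CPM in Blimp1KO, or 2.50 ± 0.32 higher on the log2 scale (SE, adjusted p = 0.0324).

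**Figure D1:**
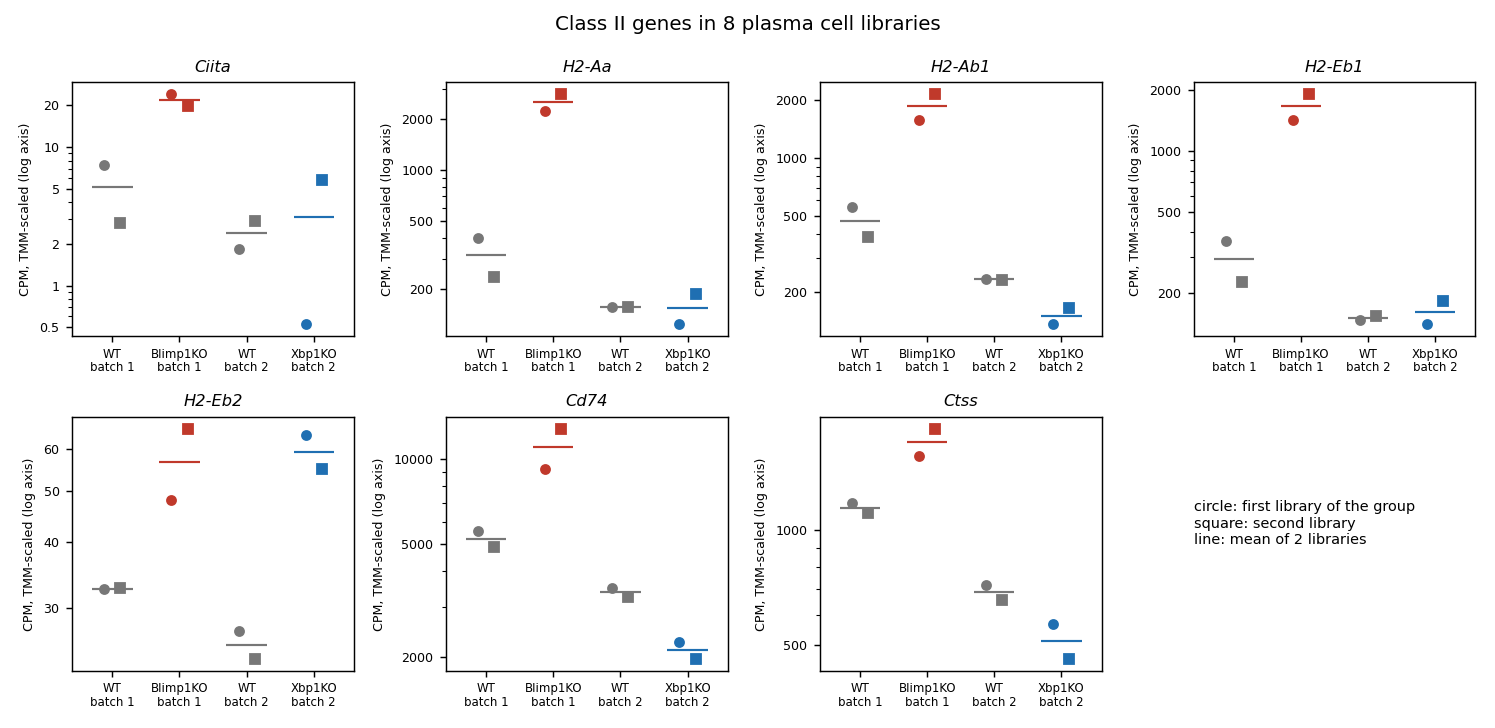
Level of each of the 7 genes in the 8 libraries, in CPM on TMM-scaled library sizes (log axis), with 1 point per library and a line at the mean of the 2 libraries of a group. H2-Aa, H2-Ab1 and H2-Eb1 lie highest in both Blimp1KO libraries (red), H2-Eb2 is high in both knockouts, and the Xbp1KO libraries (blue) of Ciita lie far apart.

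Cd74 was the most abundant of the 7 transcripts in every library on a per-length scale (FPKM, a count per kilobase of exon and per 1e6 counts). It was at 5553 and 4888 CPM in batch 1 WT and at 9211 and 12810 CPM in Blimp1KO. The Blimp1KO libraries were higher, but the log2 fold change of 1.08 ± 0.31 (SE) had an adjusted p of 0.184. Ranked by FPKM among the genes tested, immunoglobulin genes included, Cd74 was at place 99 and 107 in batch 1 WT and 28 and 26 in Blimp1KO. Such a rank also depends on the other genes. It was 100 and 93 in batch 2 WT and 48 and 44 in Xbp1KO, where the CPM of Cd74 was lower than in WT. Ctss, the protease of the last step of invariant chain removal, was at 1179 and 1108 CPM in WT and at 1570 and 1848 CPM in Blimp1KO (log2 fold change 0.58 ± 0.23 (SE), adjusted p = 0.337). H2-Eb2, a beta chain gene beside H2-Eb1, was at 32.6 and 32.8 CPM in WT and at 48.0 and 65.6 CPM in Blimp1KO (log2 fold change 0.80 ± 0.19 (SE), adjusted p = 0.119).

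Ciita, the transactivator that the class II genes depend on, was the least abundant of the 7 genes. It had 330 and 135 counts in WT of batch 1, which is 7.48 and 2.84 CPM, and 1776 and 1499 counts in Blimp1KO, which is 24.3 and 19.8 CPM. The groups did not overlap, but the WT libraries lay far apart, and the log2 fold change of 2.09 ± 0.97 (SE, 95% interval -0.20 to 4.39) had an adjusted p of 0.407. Ciita shares exonic bases with Dexi on the opposite strand, and 1.46% of its 50-base words occur in Dexi, while Dexi itself was at -0.16 ± 0.28 on the log2 scale (SE, adjusted p = 0.890).

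In all, 3 of the 7 genes were called higher in Blimp1KO and none lower, where 0.862% of all genes tested were called in either direction and 0.577% were called higher. The groups did not overlap for 7 of 7, against 43.1% of all genes tested. The median log2 fold change of the 7 was 1.98, and that of all genes tested was -0.01. The 3 calls rest on a small number of libraries: each was lost when WT replicate 1, 2, 3 or 4 was left out in turn, with adjusted p from 0.0655 to 0.317, and in a fit on batch 1 alone (adjusted p = 0.0873 for H2-Aa, 0.124 for H2-Ab1 and 0.0939 for H2-Eb1), while the log2 fold change of H2-Aa stayed between 2.67 and 3.80 in 19 alternatives.

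Markers of other class II bearing cells were set beside these values, since bulk RNA cannot tell more cells of a type from more RNA per cell. The sum of 12 mature B cell genes was 578 and 505 CPM in batch 1 WT and 810 and 914 CPM in Blimp1KO, with none at 0 counts in any library. Without Fcrla, which held most of the WT sum, the other 11 came to 209 and 179 CPM in WT and 484 and 505 CPM in Blimp1KO. Of the 12 genes 11 had estimates above WT in Blimp1KO, with a median log2 fold change of 1.22 against -0.01 over all genes tested, and none was called; Cxcr5, a chemokine receptor of follicular B cells, was at 0.52 and 0.59 CPM in WT and at 9.07 and 15.2 CPM in Blimp1KO (adjusted p = 0.0735), and Bank1 had an adjusted p of 0.0538. The sum of 12 dendritic cell genes was 29.4 and 25.8 CPM in WT and 62.0 and 44.9 CPM in Blimp1KO, and 1 of the 12 was at 0 counts in WT replicate 1. Here too 11 of 12 estimates were above WT, with a median of 1.01. The sum of 12 macrophage and monocyte genes was 1455 and 2464 CPM in WT and 1353 and 1769 CPM in Blimp1KO, and without Ly6c2 it was 402 and 729 CPM in WT and 680 and 368 CPM in Blimp1KO, with 10 of 12 estimates below WT and a median of -0.35. Of the 12 dendritic cell genes and the 12 macrophage and monocyte genes none was called in Blimp1KO, against 0.862% of all genes tested. The sums for mature B cells and for dendritic cells were thus higher in the same libraries as the class II genes. That for plasma cells was lower (10 of 10 estimates below WT, Prdm1 itself among them). The part of these cell types in the class II values was not tested.

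**Figure D2:**
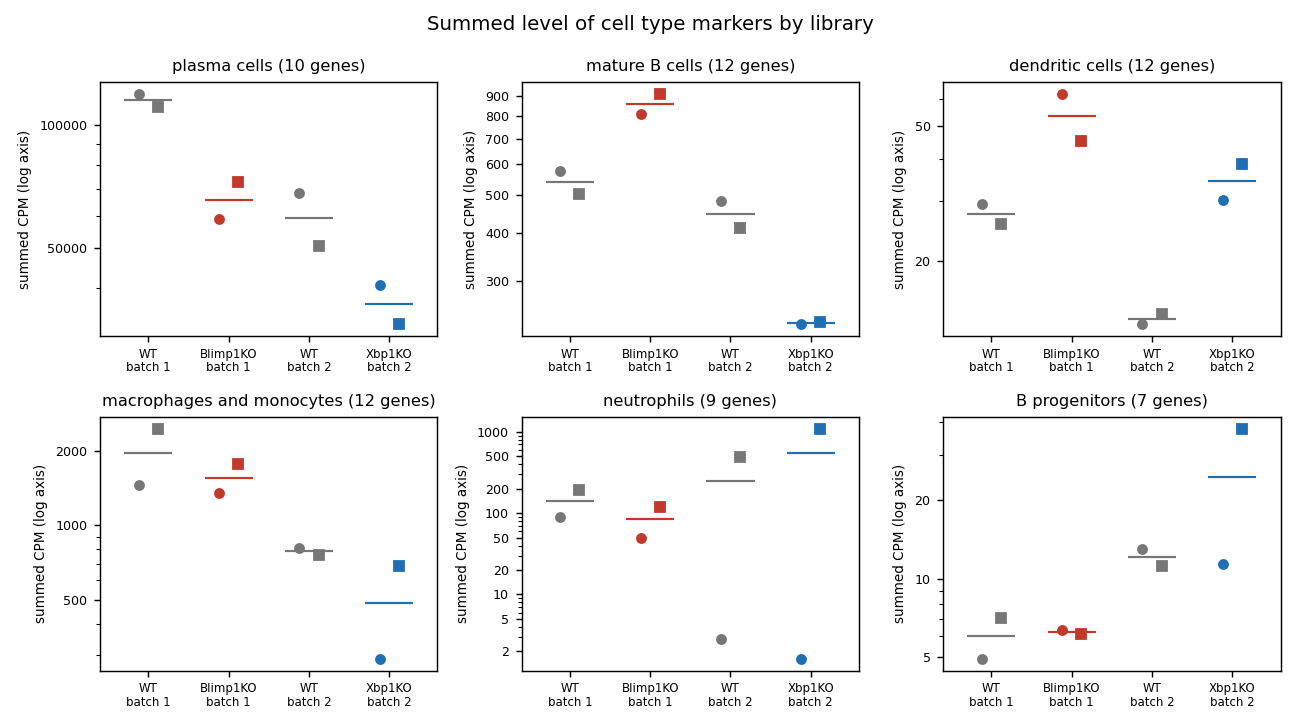
Summed CPM (log axis) of marker genes of 6 cell types in the 8 libraries, with 1 point per library and a line at the group mean. Neutrophil markers separate WT replicate 4 and Xbp1KO replicate 2 (squares, 493 and 1097 CPM) from their partners (circles, 2.81 and 1.60 CPM), and mature B cell markers are highest in Blimp1KO.

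In Xbp1KO plasma cells the pattern was another one: H2-Eb2 rose, and no other member passed the test. H2-Eb2 was at 27.2 and 24.1 CPM in batch 2 WT and at 63.7 and 55.0 CPM in Xbp1KO. Both Xbp1KO libraries lay above both WT libraries, and the log2 difference came to 1.21 with an SE of 0.19 (n = 2 per group; 2.32-fold, edgeR adjusted p = 0.0140). H2-Aa was at 157 and 156 CPM in WT and at 123 and 186 CPM in Xbp1KO, so that the WT libraries fell between the Xbp1KO libraries, and its log2 fold change was -0.02 ± 0.34 (SE, 95% interval -0.81 to 0.78, adjusted p = 0.985). H2-Eb1 was at 147 and 154 CPM in WT and at 140 and 182 CPM in Xbp1KO, or 0.10 ± 0.30 on the log2 scale (SE, 95% interval -0.61 to 0.81, adjusted p = 0.880). These groups overlapped as well.

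H2-Ab1, Cd74 and Ctss had lower values in both Xbp1KO libraries than in both WT libraries, without passing the test. H2-Ab1 was at 234 and 232 CPM in batch 2 WT and at 136 and 166 CPM in Xbp1KO (log2 fold change -0.62 ± 0.28 (SE), adjusted p = 0.237). Cd74 was at 3500 and 3241 CPM in WT and at 2255 and 1958 CPM in Xbp1KO (log2 fold change -0.68 ± 0.31 (SE), adjusted p = 0.243). Ctss was at 718 and 655 CPM in WT and at 567 and 459 CPM in Xbp1KO (log2 fold change -0.42 ± 0.23 (SE), adjusted p = 0.342). These signs depend on the scaling: on library totals without TMM factors, where the median of all genes moved from 0.08 to 1.24, the 3 log2 fold changes were 0.55, 0.48 and 0.73, still below that median.

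Ciita gave no common value in Xbp1KO. It was at 1.83 and 2.94 CPM in batch 2 WT (214 and 204 counts), at 0.52 CPM in Xbp1KO replicate 1 (98 counts) and at 5.75 CPM in Xbp1KO replicate 2 (533 counts), so that the Xbp1KO libraries lay on either side of WT. The log2 fold change was 0.39 ± 0.95 (SE, adjusted p = 0.849), and without Xbp1KO replicate 2 it was -2.14. That library also held the most neutrophil transcripts and more macrophage transcripts than its partner. C1qa, a macrophage complement gene, was at 33.7 CPM against 0.36 CPM. In batch 1, WT replicate 2 had more C1qa than WT replicate 1 (118 against 42.5 CPM). It had less Ciita (2.84 against 7.48 CPM) and less H2-Aa (234 against 397 CPM). The part of such cells in the Ciita value was not tested. The chains were also higher in Xbp1KO replicate 2 than in replicate 1 for H2-Aa, H2-Ab1 and H2-Eb1, while WT replicates 3 and 4, with C1qa at 0.77 and 10.4 CPM, had H2-Aa at 157 and 156 CPM. The part of such cells in the chain values was not tested either.

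Of the 7 genes, 1 was called higher and none lower in Xbp1KO, against 7.70% of all genes tested called in either direction and 2.63% called higher. The groups did not overlap for 4 of 7, against 57.6% of all genes tested, and the median log2 fold change was -0.02 against 0.08 over all genes tested. The call on H2-Eb2 was lost when WT replicate 3 or 4 or Xbp1KO replicate 1 or 2 was left out, with log2 fold changes from 1.02 to 1.34 and adjusted p from 0.0513 to 0.123. The sum of 12 mature B cell genes was 484 and 411 CPM in WT and 232 and 235 CPM in Xbp1KO, a fall carried by Fcrla, which went from 266 and 229 CPM to 19.3 and 29.7 CPM and was called lower. The other 11 genes summed to 218 and 182 CPM in WT and 212 and 205 CPM in Xbp1KO, Cr2 was called higher, and 9 of 12 estimates were above WT with a median log2 fold change of 0.34. The sum of 12 dendritic cell genes was 13.0 and 13.9 CPM in WT, with 2 and 1 of them at 0 counts. In Xbp1KO it was 30.2 and 38.6 CPM, with 9 of 12 estimates above WT and a median of 0.87. Ccr9, the 1 gene called, was at 9.19 and 6.73 CPM in WT and at 25.7 and 20.4 CPM in Xbp1KO. It thus held most of the Xbp1KO sums, and the sum without it was not taken. The part of dendritic cells in the H2-Eb2 value was not tested.

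**Figure D3:**
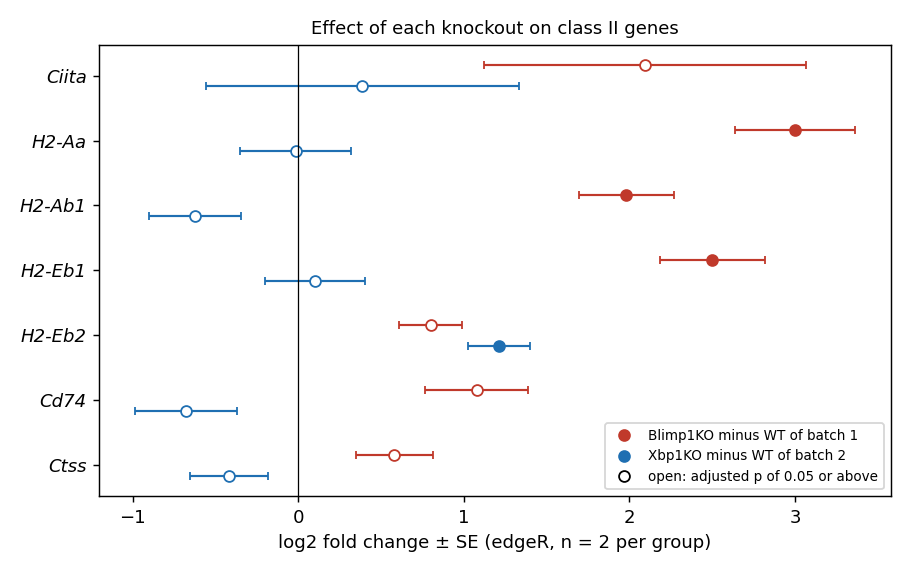
Log2 fold change of each gene with its SE (bars) in Blimp1KO against WT of batch 1 (red) and in Xbp1KO against WT of batch 2 (blue), with n = 2 libraries per group. Filled points passed the threshold of 0.05 on the adjusted p; these are H2-Aa, H2-Ab1 and H2-Eb1 in Blimp1KO and H2-Eb2 in Xbp1KO.

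The difference between the effects of the knockouts was tested directly. It was 3.01 ± 0.48 on the log2 scale for H2-Aa (SE, adjusted p = 0.0376), 2.61 ± 0.40 for H2-Ab1 (SE, adjusted p = 0.0331) and 2.40 ± 0.43 for H2-Eb1 (SE, adjusted p = 0.0487), each with the larger value in Blimp1KO. These 3 of 7 genes were called, against 1.68% of all genes tested. For H2-Eb2 the difference was -0.41 ± 0.27 (SE, 95% interval -1.04 to 0.21, adjusted p = 0.529), so the higher level in Xbp1KO was not shown to be particular to that knockout. Cd74 had a difference of 1.75 ± 0.44 (SE, adjusted p = 0.107), Ctss 1.00 ± 0.33 (SE, adjusted p = 0.191) and Ciita 1.71 ± 1.34 (SE, adjusted p = 0.624). The number of called differences fell to 0 when WT replicate 1, 2, 3 or 4 or either Xbp1KO library was left out.

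Ratios between members within a library do not depend on how libraries are scaled, and they were taken on counts per length. H2-Aa over H2-Ab1, the alpha and beta chains of I-A, was 0.80 and 0.68 in WT of batch 1 and 0.75 and 0.75 in WT of batch 2. It was 1.59 and 1.46 in Blimp1KO and 1.01 and 1.25 in Xbp1KO. Per length, alpha transcripts were thus fewer than beta transcripts in all 4 WT libraries and more in all 4 knockout libraries. In Xbp1KO replicate 1 this rests on the division by length, with counts of 23078 for H2-Aa and 25435 for H2-Ab1. H2-Eb1 over H2-Ab1 was 0.42 to 0.47 in the 4 WT libraries, 0.65 and 0.63 in Blimp1KO and 0.74 and 0.78 in Xbp1KO.

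The ratio of the neighbouring beta chain genes H2-Eb1 and H2-Eb2 shifted in opposite directions in the knockouts. H2-Eb1 over H2-Eb2 was 22.4 and 14.1 in WT of batch 1 and 59.9 and 58.9 in Blimp1KO, and it was 10.96 and 12.9 in WT of batch 2 and 4.46 and 6.71 in Xbp1KO. The Blimp1KO values lay above, and the Xbp1KO values below, all 4 WT values. H2-Eb2 made up 0.333% and 0.347% of the transcripts of the 4 chains in Blimp1KO and 5.67% and 3.71% in Xbp1KO, against 0.908% to 1.83% in WT. These ratios are given as descriptions, with no test.

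The invariant chain was in excess over the chains in every library, by an amount that differed. Cd74 over the sum of the 4 chains was 3.70 and 5.02 in WT of batch 1, 1.53 and 1.62 in Blimp1KO, 5.63 and 5.21 in WT of batch 2 and 4.80 and 3.16 in Xbp1KO. The Blimp1KO libraries had the lowest values. In WT of batch 1 the per-length order was Cd74, Ctss, H2-Ab1, H2-Aa, H2-Eb1, H2-Eb2 and Ciita in both libraries, and in Blimp1KO H2-Aa (2085 and 2634 FPKM) stood next to Cd74, followed by H2-Ab1 and then Ctss (1159 and 1364 FPKM). Together the 7 genes took 1.88% and 1.70% of all counts outside immunoglobulin genes in WT of batch 1, 3.81% and 5.01% in Blimp1KO, 1.27% and 1.198% in WT of batch 2 and 0.843% and 0.848% in Xbp1KO.

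**Figure D4:**
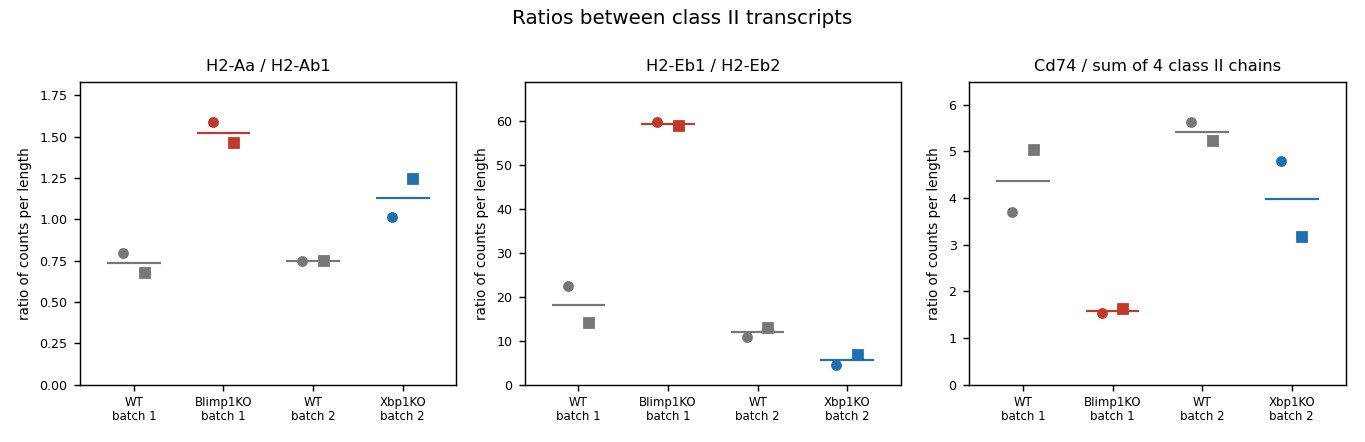
Ratios of length-scaled counts within each library, with 1 point per library and a line at the group mean: H2-Aa over H2-Ab1, H2-Eb1 over H2-Eb2, and Cd74 over the sum of H2-Aa, H2-Ab1, H2-Eb1 and H2-Eb2. H2-Eb1 over H2-Eb2 is highest in Blimp1KO (59.9 and 58.9) and lowest in Xbp1KO (4.46 and 6.71).

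WT libraries of the batches also differed, which bears on levels read across batches. All 7 log2 fold changes of WT of batch 2 over WT of batch 1 were negative, from -1.12 for Ciita to -0.35 for H2-Eb2, although H2-Eb2 was at 0.23 on library totals without TMM factors. For H2-Ab1 the value was -1.01 ± 0.28 (SE, adjusted p = 0.0962). None of the 7 was called by edgeR, against 2.81% of all genes tested. An unadjusted p under 0.05 in edgeR was reached by 4 of the 7, against 27.1% of all genes tested, and DESeq2 called 4 of the 7, against 13.0% of all genes tested. The WT batches did not overlap for 6 of 7 genes, against 67.7% of all genes tested. In mean CPM, H2-Aa was therefore ordered Blimp1KO (2522 ± 415, SD), WT of batch 1 (316 ± 115), WT of batch 2 (156 ± 0.566) and Xbp1KO (155 ± 44.1), with the last 2 not differing beyond their spread.

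Most genes that edit the peptide in the class II groove rose in Blimp1KO. The 5 genes encode the chains of H2-M, which exchanges CLIP for peptide, and of H2-O, which restrains H2-M in B cells. Of these, 4 of 5 were called higher, against 0.577% of all genes tested. H2-Oa was at 0.57 and 0.50 CPM in batch 1 WT and at 8.43 and 24.4 CPM in Blimp1KO (log2 fold change 4.93 ± 0.69 (SE), adjusted p = 0.0364), and its partner H2-Ob was at 32.5 and 26.7 CPM and at 133 and 204 CPM (2.51 ± 0.27 (SE), adjusted p = 0.0263). H2-DMa rose by 1.72 ± 0.21 on the log2 scale (SE, adjusted p = 0.0323) and H2-DMb2 by 4.05 ± 0.63 (SE, adjusted p = 0.0447). The median of the 5 was 2.51. In Xbp1KO 1 of 5 was called higher, against 2.63% of all genes tested, and the median of the 5 was -0.29. The called gene was H2-DMa, at 13.6 and 14.5 CPM in WT and 30.5 and 34.2 CPM in Xbp1KO (log2 fold change 1.2003 ± 0.21 (SE), adjusted p = 0.0200). H2-DMa and H2-Eb2 were thus the class II pathway genes of these 12 that rose in Xbp1KO.

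No gene of the factors that CIITA works through was called, which is close to the share over all genes tested. Of 7 genes of RFX, NF-Y and CREB, 0 were called in either knockout. Of all genes tested, 0.862% were called in Blimp1KO and 7.70% in Xbp1KO. The median log2 fold change of the 7 was 0.06 in Blimp1KO and 0.04 in Xbp1KO. The smallest p in Blimp1KO belonged to Creb1 (0.56 ± 0.21 (SE), adjusted p = 0.309) and Nfya (0.33 ± 0.19 (SE), adjusted p = 0.525). In Xbp1KO it belonged to Rfxap (-0.55 ± 0.22 (SE), adjusted p = 0.187) and Rfx5 (0.24 ± 0.22 (SE), adjusted p = 0.569).

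Of 11 factors that are known to act on Ciita, Prdm1 itself among them, 1 was called higher in Blimp1KO, against 0.577% of all genes tested. Spib, an Ets factor of B cells and plasmacytoid dendritic cells, was at 5.78 and 7.22 CPM in batch 1 WT and at 157 and 197 CPM in Blimp1KO (log2 fold change 4.77 ± 0.62 (SE), adjusted p = 0.0326). The list's median was 0.26. Spib is a gene of B cells, and the part of remaining B cells in its value was not tested. In Xbp1KO 1 of the 11 was called, where 7.70% of all genes tested were called in either direction, and the median was 0.13. The called gene was Irf8, lower at 46.2 and 41.8 CPM in WT and 22.4 and 26.2 CPM in Xbp1KO (log2 fold change -0.86 ± 0.20 (SE), adjusted p = 0.0483).

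Of 10 genes for invariant chain processing and endosomal proteolysis other than Ctss, 0 were called in Blimp1KO (median log2 fold change 0.09), where 0.862% of all genes tested were called, and 4 in Xbp1KO (median 0.02), where 7.70% were called. In Blimp1KO the smallest p belonged to Ctsh, an aminopeptidase of endosomes (1.68 ± 0.29 (SE), adjusted p = 0.0573), and to Ifi30, which encodes the thiol reductase GILT (1.12 ± 0.24 (SE), adjusted p = 0.0956). In Xbp1KO Cst3, the cysteine protease inhibitor cystatin C, fell from 191 and 161 CPM to 39.4 and 45.8 CPM (-2.05 ± 0.26 (SE), adjusted p = 0.00687), and Ctsh fell from 43.0 and 42.1 CPM to 11.7 and 18.7 CPM (-1.49 ± 0.29 (SE), adjusted p = 0.0291). Ctsz, a carboxypeptidase, rose (1.53 ± 0.23 (SE), adjusted p = 0.0131), as did Ifi30 (1.03 ± 0.24 (SE), adjusted p = 0.0483). The effects differed between the knockouts for Ctsh (3.17, adjusted p = 0.0232) and Cst3 (2.47, adjusted p = 0.0282).

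**Figure D5:**
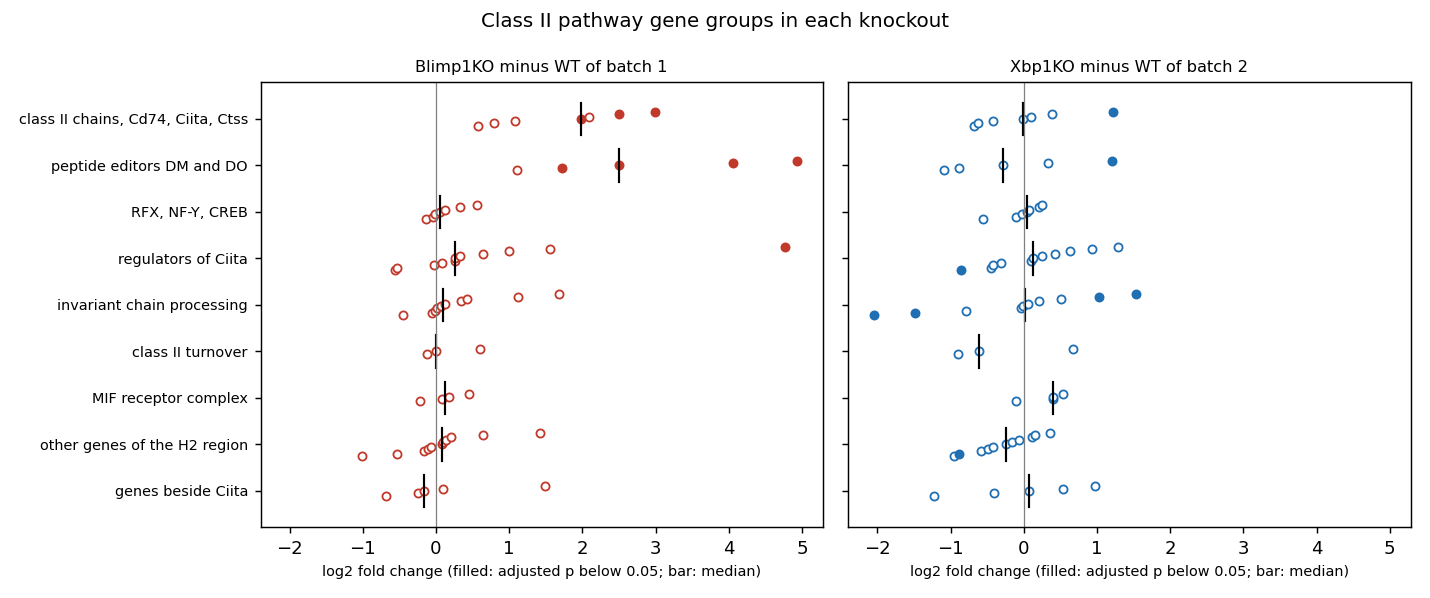
Log2 fold changes of the genes of each class II pathway group in Blimp1KO against WT of batch 1 (left) and in Xbp1KO against WT of batch 2 (right), with 1 point per gene, filled where the adjusted p was below 0.05, and a bar at the group's median. The peptide editors have 4 of 5 filled points in Blimp1KO and 1 of 5 in Xbp1KO.

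Genes for the turnover of surface class II (Marchf1 and Marchf8, ubiquitin ligases, and Cd83) gave no call in either knockout. Nor did those of the receptor complex in which CD74 binds the cytokine MIF (Mif, Ddt, Cd44 and Cxcr4). Over all genes tested, 0.862% were called in Blimp1KO and 7.70% in Xbp1KO. The smallest p among the turnover genes belonged to Marchf1 in Blimp1KO (0.60 ± 0.50 (SE), adjusted p = 0.704) and to Marchf8 in Xbp1KO (-0.90 ± 0.28 (SE), adjusted p = 0.109). In the MIF group they belonged to Cxcr4 in Blimp1KO (0.45 ± 0.26 (SE), adjusted p = 0.520) and to Mif in Xbp1KO (0.54 ± 0.35 (SE), adjusted p = 0.411).

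Other genes of the H2 class II region, which lie among or beside the chain genes, were called about as often as all genes tested. Of 12 listed, 11 were tested and 0 were called in Blimp1KO, where 0.862% of all genes tested were called. Their median log2 fold change was 0.09, and Gpsm3 had the smallest p (1.43 ± 0.34 (SE), adjusted p = 0.117). In Xbp1KO 1 of 11 was called, where 7.70% of all genes tested were called in either direction. The called gene was Rnf5, lower at 20.7 and 17.6 CPM in WT and 11.2 and 9.59 CPM in Xbp1KO (-0.88 ± 0.20 (SE), adjusted p = 0.0449). The gene that was not tested is H2-Ea, the I-E alpha chain, which C57BL/6 mice are known not to express. Its entry, under the symbol H2-Ea-ps, had 0 to 6 counts in each library. Of 5 genes beside Ciita, 0 were called in either knockout, against 0.862% of all genes tested in Blimp1KO and 7.70% in Xbp1KO. Socs1 had the smallest p in both (1.495 ± 0.41 (SE), adjusted p = 0.167, in Blimp1KO and -1.23 ± 0.41 (SE), adjusted p = 0.124, in Xbp1KO).

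Likeness of pattern was measured as the root mean square difference of centred log2 CPM over the 8 libraries, given as a description, so that 0 means the same profile. Among the 7 genes, Cd74 and Ctss (0.24) and H2-Aa and H2-Eb1 (0.27) were nearest, and Ciita and H2-Eb2 were farthest apart (1.67). The genes nearest to the mean profile of Cd74, H2-Aa, H2-Ab1 and H2-Eb1, among 6961 genes whose log2 CPM averaged 3 or more, included Sh3bgrl3 (0.29), Cyb561a3 (0.32), Cd52 (0.36) and Dnase1l3 (0.36). Nearest to Ciita were Pglyrp1 (0.49), Slc44a2 (0.50), Tlr9 (0.62), Ncf1 (0.65) and Btg1 (0.66). All of them, like Ciita, were higher in Xbp1KO replicate 2 than in replicate 1, a trait that choosing them by this likeness favours. The profile of H2-Eb2, added after its values were seen, was nearest to those of Rpl27a (0.10), Pigx (0.14), Txndc12 (0.15), Npm1 (0.16) and Rps15a (0.16).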

How the data were processed

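Total RNA of sorted plasma cells was made into TruSeq libraries, per the labels' protocols. Subread, featureCounts and limma are named as tools and GRCm38 and mm10 as builds, per the submitters' processing notes, without a role; read length and strand setting are not given in the sources used here. The authors deposited raw counts per Entrez gene, which every test here used, and log2 FPKM values for 13945 genes per sample. The deposited log2 FPKM of the 4 batch 1 libraries followed the count column of the other replicate of their group (Spearman's rho 0.986 to 0.997, against 0.416 to 0.772 for their own number), which leaves group comparisons as they are. They also look quantile-normalized, since 560 of the 1000 highest ranks, freed of length, were equal in all 8 libraries within 1e-06.

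Counts were analysed in R 4.3.3 with edgeR 4.0.16: filterByExpr (minimum count 10) left 15073 genes, TMM factors ran from 0.564 to 2.11, and a quasi-likelihood model with 4 group means had 4 residual and 3.06 prior degrees of freedom. Adjusted p-values are Benjamini-Hochberg values over all genes tested, with calls below 0.05. The SE is the absolute log2 fold change over the square root of F. Symbols came from the deposited files for 13860 genes and from RefSeq for 11720; genes with none (1599) held 0.057% to 0.240% of counts. Alternatives used DESeq2 1.42.0, limma 3.58.1, other filters, scalings and samples. On simulated counts the fit called 21.2% (Blimp1KO) and 13.8% (Xbp1KO) of genes with a true log2 change of 1 in size. At a size of 2 it called 77.5% and 75%, and of unchanged genes 0.042% in each. The simulated counts had no difference between batches. A gene that was not called can thus still have a change of that smaller size, or a larger one where its libraries spread widely. Ciita, with an estimate of 2.09 ± 0.97 (SE) in Blimp1KO, was not called.

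The members, lists and alternatives were chosen with earlier results of these data known. Named are all 7 members; per list and contrast, up to 4 called genes with the smallest p, or up to 2 by smallest p where none was called; and the 5 nearest profiles, without immunoglobulin, pseudogene and predicted genes. A gene that this rule selects is not reported here. Cxcr5, Bank1, C1qa, Ly6c2 and Dexi, and the marker sums without Fcrla or Ly6c2, were chosen after their values were seen.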

Additional observations from a re-analysis of the deposited data

Results flagged for a closer look

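The effect of Blimp1KO differed from that of Xbp1KO by the test of the difference itself for 3 of the 7 genes, by 3.01 on the log2 scale for H2-Aa, 2.61 for H2-Ab1 and 2.40 for H2-Eb1, with both Blimp1KO libraries above both WT libraries of their batch for each gene. The knockouts were run in different batches, each with WT libraries of its own. Groups of 2 libraries are too small for a check of single outlying libraries.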

How the results depend on the processing

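The log2 fold changes of H2-Aa (2.67 to 3.80), H2-Eb1 (2.21 to 3.30) and H2-Ab1 (1.74 to 2.77) in Blimp1KO and of H2-Eb2 in Xbp1KO (1.02 to 2.37) kept their direction in 19 of 19 alternatives, and were called in 12, 12, 11 and 14 of them; the causes of lost calls were not tested. In Blimp1KO 3 of 7 members and 130 genes were called. The members called were 0 with batch 1 alone, 0 on the deposited log2 FPKM and 6 with DESeq2 or with library totals without TMM factors, a scaling added after seeing the data. The genes called were 517 without a filter, 20 with batch 1 alone, 269 with all 4 WT libraries as control, 83 with limma-voom, 0 on log2 FPKM (1745 at an unadjusted p under 0.05), 862 with DESeq2 and 5895 on library totals. In Xbp1KO, where 1 member and 1160 genes were called, the members called were 2 with DESeq2 and 4 on library totals, and the genes called were 620 on log2 FPKM, 2220 with DESeq2 and 9474 on library totals. For the difference of effects, with 3 members and 253 genes called, the members called were 5 with all 4 WT libraries as control, 0 on log2 FPKM, 5 with DESeq2 and 1 on library totals, and the genes called were 763 without a filter, 1552 with all 4 WT libraries, 34 on log2 FPKM and 1180 with DESeq2. Between the WT batches, with 0 members and 423 genes called, DESeq2 called 4 members, and the genes called were 1662 without a filter, 204 with limma-voom, 1960 with DESeq2 and 2836 on library totals. Library totals moved the median of all genes to 0.78 in Blimp1KO, 1.24 in Xbp1KO and 0.56 between WT batches, and with them the signs in Xbp1KO of Cd74 (0.48), H2-Aa (1.16), H2-Ab1 (0.55) and Ctss (0.73), and of H2-Eb2 between WT batches (0.23).

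Leaving out 1 library gave 0 to 4 members and 0 to 688 genes in Blimp1KO, 0 to 1 members and 225 to 2123 genes in Xbp1KO, 0 to 3 members and 3 to 598 genes for the difference, and 0 to 1 members and 14 to 2963 genes between WT batches; a lone library was then assumed to vary like the other groups. Leaving out both libraries with the most neutrophil transcripts, added after seeing the data, gave 0 members in each contrast, and 31 genes in Blimp1KO, 59 in Xbp1KO, 2 for the difference and 32 between WT batches. Other signs that turned in Xbp1KO were Ciita (-0.27 with all 4 WT libraries, -0.77 with limma-voom, -0.39 on log2 FPKM, -2.14 to 1.21 with 1 library left out, the lowest without Xbp1KO replicate 2, and -1.81 without both), H2-Aa (0.025 on log2 FPKM, -0.31 to 0.17 with 1 library left out) and H2-Eb1 (-0.46 with all 4 WT libraries, -0.072 to 0.20 with 1 library left out, -0.075 without both).

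The replicate block in batch 1 called 2 members in Blimp1KO, with H2-Ab1 lost (adjusted p = 0.0703), and 89 genes. It called 0 members for the difference, with 178 genes, and 189 genes between WT batches. Same-numbered libraries of batch 1 deviated from their group means together with r = 0.218. With 2 libraries per group this value is equal in both pairs by construction. It is therefore 1 observation and cannot decide whether the libraries are paired, and the labels give only the shared number. WT of batch 2 and Xbp1KO share no number, and no paired analysis was possible there because of it.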
